A study of Mus musculus with 6 samples.

Results

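The S100 genes followed here, in bulk RNA-seq of mouse corneal epithelium, were *S100a8*, *S100a9*, *S100a4*, *S100a6*, *S100a10*, *S100a11*, *S100a14*, *S100a16*, *S100a1* and *S100a3*. The members were chosen by gene symbol, 10 of the 17784 genes listed, and *S100a8* and *S100a9* are grouped below as alarmins and the other 8 as constitutive members. The samples were 3 from *Prrx1-CreERT;Ptch1f/f* mice (Ptch1Prrx1) and 3 from control mice. The labels call the controls WT and ctrl and give no further genotype. All mice were 10 weeks old by the labels and received 3 doses of tamoxifen, with an interval of 2 months before the epithelium was lifted off with EDTA. *Prrx1-CreERT* is a tamoxifen-inducible recombinase knocked in at *Prrx1* and, by the study's description, active in keratocytes, other ocular mesenchymal cells and corneal endothelium, so that deletion of *Ptch1*, the receptor that holds Hedgehog signaling back, was directed at cells beneath the epithelium.

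S100 proteins are small calcium-binding proteins with a pair of EF-hand motifs, and most act as dimers that change shape when calcium is bound and then grip a partner protein. Inside epithelial cells they bind annexins and the cytoskeleton. *S100a8* and *S100a9* encode the subunits of calprotectin, an alarmin stored in neutrophils that stressed or wounded keratinocytes also make. Calprotectin withholds zinc and manganese from microbes and signals through Tlr4 and Ager once released. In bulk samples, fewer cells of a type and less RNA per cell cannot be told apart.

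The windows upstream of the start of 4 members are shown because these genes span the range seen here, from the alarmins, at or near 0 in controls, to the most abundant members. Sequences are those of RefSeq on GRCm38.p6 (chromosome 3, 250 bases upstream of the start, 5′ to 3′ on the strand of the gene), and 8 of the 10 members had an entry. Capitals mark matches on either strand to the TATA box (letters TATAAA), the AP-1 motif bound by Jun and Fos (letters TGANTCA) and the C/EBP motif (letters TTNNGNAA). *S100a8* lies on the plus strand at chr3:90668821-90669070, *S100a9* on the minus strand at chr3:90695722-90695971, *S100a6* on the plus strand at chr3:90612644-90612893 and *S100a11* on the plus strand at chr3:93520246-93520495.
S100a8: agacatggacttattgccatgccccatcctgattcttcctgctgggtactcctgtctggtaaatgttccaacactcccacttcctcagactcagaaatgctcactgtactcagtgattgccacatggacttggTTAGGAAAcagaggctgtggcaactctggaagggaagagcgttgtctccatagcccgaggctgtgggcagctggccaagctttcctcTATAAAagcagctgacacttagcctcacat
S100a9: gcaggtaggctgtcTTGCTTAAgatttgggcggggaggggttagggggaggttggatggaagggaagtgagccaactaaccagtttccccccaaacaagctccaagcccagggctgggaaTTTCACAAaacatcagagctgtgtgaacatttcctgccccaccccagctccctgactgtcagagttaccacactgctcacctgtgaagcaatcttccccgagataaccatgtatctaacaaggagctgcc
S100a6: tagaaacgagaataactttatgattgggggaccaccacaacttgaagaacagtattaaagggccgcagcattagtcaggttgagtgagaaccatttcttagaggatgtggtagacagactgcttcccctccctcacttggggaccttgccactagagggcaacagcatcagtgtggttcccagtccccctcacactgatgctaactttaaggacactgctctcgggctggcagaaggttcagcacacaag
S100a11: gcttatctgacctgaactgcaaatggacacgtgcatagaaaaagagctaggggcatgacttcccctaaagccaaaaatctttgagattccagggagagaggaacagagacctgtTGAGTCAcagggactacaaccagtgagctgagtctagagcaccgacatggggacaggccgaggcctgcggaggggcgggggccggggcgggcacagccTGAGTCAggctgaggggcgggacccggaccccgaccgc
The *S100a8* window held TATAAA 30 bases upstream of the start and 1 C/EBP match 117 bases upstream. That of *S100a9* held C/EBP matches 236 and 130 bases upstream. The AP-1 matches of *S100a11* lay 136 and 38 bases upstream, and in the *S100a6* window none of the 3 motifs was matched. Over the 12 windows of the 8 members, TATAAA was matched in 3, the AP-1 motif in 2 and the C/EBP motif in 4. Of all 32851 promoter windows 12.4%, 6.75% and 36.8% held them. *S100a3* and *S100a16* had more than 1 window each, so the windows are not separate members. *S100a3* supplied TATAAA and C/EBP matches from different starts. A match describes the letters only and is not a measured binding site.

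Depth was even, at 20296741 to 20625813 expected counts per sample, and 3 counts corresponded to 0.145 to 0.148 CPM (counts scaled to the depth of a sample), a floor for counting error only. Levels are given as TPM, which also corrects for gene length. Of 12999 genes that passed the filter on low counts, edgeR's quasi-likelihood test called 420, or 3.23%. A call needed a Benjamini-Hochberg adjusted p no higher than 0.05 together with a 2-fold change or more. These were 304 higher in Ptch1Prrx1 (2.34%) and 116 lower (0.892%). With 3 samples a group, the smallest p of an exact permutation test is 0.10, and adjusted p values of the fit across genes are given instead. *Ptch1* itself (gene 19206) stood at 7.31, 9.70 and 10.2 TPM in control replicates 1 to 3 and at 5.28, 6.33 and 7.01 TPM in Ptch1Prrx1 replicates 1 to 3. Every Ptch1Prrx1 sample lay below every control, in a tissue that is not among those in which the recombinase is described as active. *Krt12*, the keratin that defines corneal epithelium, was at 37107 TPM in Ptch1Prrx1 replicate 1 and at 41137 to 49487 TPM in the other samples. The 11 corneal epithelial markers summed to 94032 TPM in Ptch1Prrx1 replicate 1 and to 100296 to 115107 TPM in the others. Of these markers *Krt14* and *Clu* were called, both higher in Ptch1Prrx1, *Clu* at the fold threshold and not by limma-voom. Control replicate 3 stood apart in some stromal genes, though not in all, and Ptch1Prrx1 replicate 1 in conjunctival keratins. Results that rest on either sample are given with and without it.

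The members ranged from the most abundant transcripts of the tissue to transcripts at 0. *S100a11* and *S100a6* were the 15th and 21st most abundant of 17784 genes by mean control TPM, *S100a10* the 66th, *S100a16* the 143rd and *S100a14* the 200th. *S100a1*, *S100a3* and *S100a4* lay far lower, at ranks 3613, 4752 and 6331, *S100a9* was at rank 12121, and *S100a8* had no count in any control. The control order was *S100a11*, *S100a6*, *S100a10*, *S100a16*, *S100a14*, *S100a1*, *S100a3*, *S100a4*, *S100a9* and *S100a8*, and of these neighbours *S100a3* and *S100a4* had overlapping sample ranges. In Ptch1Prrx1 samples the 5 most abundant members kept this order by mean, with overlapping ranges for *S100a11* and *S100a6* and for *S100a16* and *S100a14*. Below them the mean order was *S100a9*, *S100a4*, *S100a1*, *S100a3* and *S100a8*, but the ranges of all neighbours among these 5 overlapped. The 10 members together made up 1.2%, 1.15% and 1.14% of all TPM in control replicates 1 to 3 and 1.8%, 1.44% and 1.35% in Ptch1Prrx1 replicates 1 to 3. *S100a6* and *S100a11* supplied 70.5% to 74.7% of that sum in every sample.

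**Figure D1:**
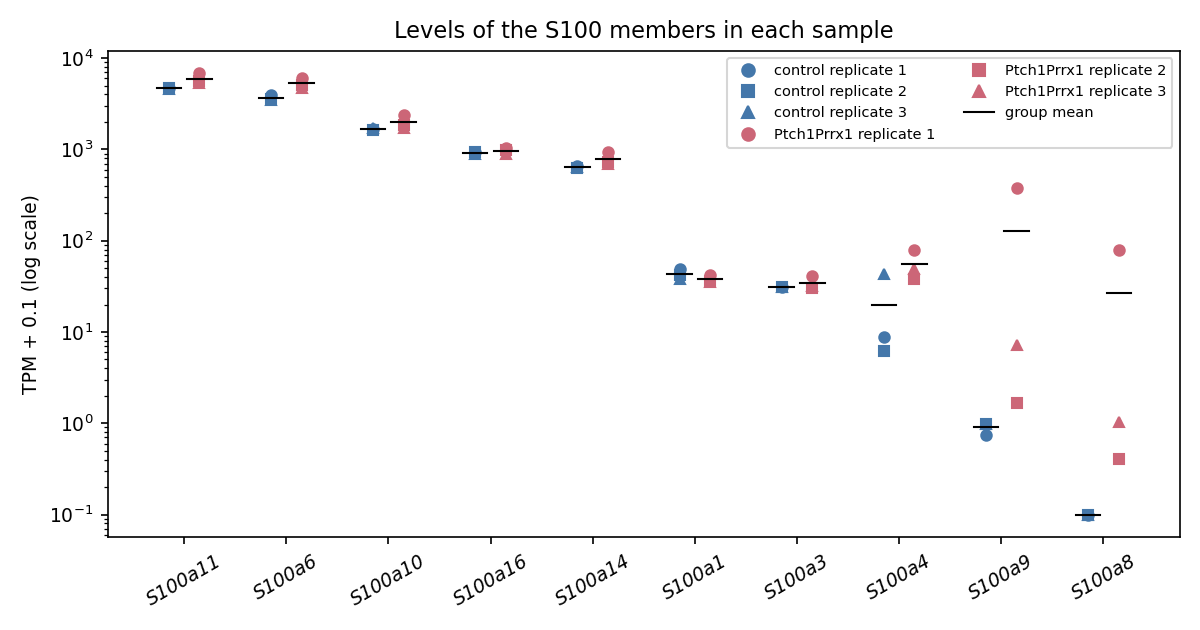
TPM + 0.1 on a log axis for the 10 members in each sample, ordered by mean control level, with control samples in blue, Ptch1Prrx1 samples in red, symbols for replicates 1 to 3 and a black line at the group mean. The 5 abundant members sit in tight groups, while *S100a9* and *S100a8* in Ptch1Prrx1 replicate 1 reach 373 and 78.8 TPM and the other samples stay at or below 7.02 TPM.

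None of the 8 members that passed the filter was called (0 of 8) by edgeR's quasi-likelihood test, DESeq2 or limma-voom. By edgeR, 3.23% of all tested genes were called, the share to set beside each list below. An unadjusted p under 0.05 in edgeR's test was found for 3 of the 8 (*S100a4*, *S100a6* and *S100a11*). Such unadjusted counts, here and for the lists below, come without the share of all tested genes and are not read as results. With the adjusted p threshold of 0.05 alone and no minimum fold, 1 of 8 was higher, *S100a6*, and 0 were lower, against 7.61% of all tested genes higher and 6.41% lower. The fitted log2 fold change was above 0 for 7 of the 8 members and for 48.5% of all tested genes. Its median over the 8 was 0.31, against -0.01 over all tested genes. Of the 8, 3 (*S100a6*, *S100a11* and *S100a14*) had every Ptch1Prrx1 sample above every control in normalized counts, as did 19.7% of all tested genes. Both alarmins were removed by the filter on low counts.

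The alarmins differed among Ptch1Prrx1 samples more than any other member. *S100a9* (gene 20202), the calprotectin subunit that carries the long tail, had 0.64, 0.89 and 0.89 TPM in control replicates 1 to 3, from 3, 4 and 4 expected counts. In Ptch1Prrx1 replicates 1 to 3 it had 373, 1.57 and 7.02 TPM, from 1739, 7 and 31 expected counts. The groups did not overlap, but replicates 2 and 3 stood at 7 and 31 counts against at most 4 in controls. Nearly all of the signal lay in replicate 1. The ratio of mean expected counts was 162 with all samples and 5.18 without Ptch1Prrx1 replicate 1 (95% exact counting interval 2.60 to 11.2, which leaves out the spread between samples). In a fit of all 17743 genes with a count, the log2 fold change of *S100a9* came to 7.35 with a standard error of 2.2 (edgeR's quasi-likelihood test, adjusted p = 0.0731). *S100a9* failed the filter with all samples and without Ptch1Prrx1 replicate 1 or replicate 3. Without Ptch1Prrx1 replicate 2 it passed, through the Ptch1Prrx1 samples in which it is high, and was called (log2 fold change 7.93, edgeR adjusted p = 0.0475), so that this call is no support for a difference.

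*S100a8* (gene 20201), the partner subunit of calprotectin, had 0 expected counts in all 3 controls. It had 266, 1 and 3 expected counts in Ptch1Prrx1 replicates 1 to 3, or 78.8, 0.31 and 0.94 TPM. The mean of 90 counts was at least 30-fold higher than a floor of 3 counts per library, a bound set by replicate 1. The other Ptch1Prrx1 samples were at or under that floor, so no fold can be given without replicate 1. In the fit without the filter the test gave an adjusted p of 0.133 (edgeR's quasi-likelihood test). By TPM there was 4.74, 5.06 and 7.47 times as much *S100a9* as *S100a8* in Ptch1Prrx1 replicates 1 to 3, where the ratios of replicates 2 and 3 rest on 1 and 3 counts of *S100a8*.

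Neutrophils store calprotectin, and their markers were read beside the alarmins. Of 14 markers listed, 12 were in the table, 7 passed the filter and 0 were called by edgeR, DESeq2 or limma-voom (3 had an unadjusted p under 0.05, *Ltf* and *Itgam* higher and *Padi4* lower). *Ngp*, *Mpo* and *Mmp8*, granule genes of neutrophils, were at 0 in all Ptch1Prrx1 samples, and *Camp* was at 0.37 TPM in Ptch1Prrx1 replicate 1 and 0 in the other 5 samples. *Ltf*, *Il1r2* and *Itgam* also peaked in that sample. *Ltf*, which encodes lactoferrin and is also made by secretory epithelia, had 8.82 to 24.4 TPM in controls and 64.0, 20.2 and 25.0 TPM in Ptch1Prrx1 replicates 1 to 3. *Il1r2*, a decoy receptor for interleukin-1, had 0.44, 2.29 and 2.36 TPM in controls and 9.43, 1.94 and 3.20 TPM in Ptch1Prrx1 samples. *Itgam*, an integrin chain of myeloid cells, had 67.0 to 100.6 TPM in controls and 129, 99.5 and 113 TPM in Ptch1Prrx1 samples. *Csf3r* and *Cxcr2*, receptors of neutrophils, were at 0.73 to 2.70 TPM and *Ly6g* at 2.76 to 6.74 TPM over all samples, and none of the 3 was highest in Ptch1Prrx1 replicate 1. *Padi4* was lowest in that sample, at 99.3 TPM against 135 to 178 TPM in the others. The part of neutrophils in the alarmin counts was not tested. The summed list ran from 249 to 304 TPM in controls and from 277 to 310 TPM in Ptch1Prrx1 samples, most of it *Padi4* and *Itgam*. Macrophage and dendritic cell markers summed to 59.7 to 75.2 TPM in controls and 57.3 to 91.3 TPM in Ptch1Prrx1 samples, highest in replicate 1, with 0 of the 4 tested called by any of these tools or at an unadjusted p under 0.05, and *Ptprc*, the pan-leukocyte gene, at most 0.20 TPM in every sample.

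Several conjunctival keratins were highest in the sample with the highest alarmins. Of 7 markers listed, 6 were in the table and 5 were tested. None was called by edgeR or limma-voom (3 had an unadjusted p under 0.05), and DESeq2 called 1, *Krt4*. The 6 markers summed to 1415, 1884 and 2366 TPM in control replicates 1 to 3 and 4755, 2208 and 2948 TPM in Ptch1Prrx1 replicates 1 to 3. *Krt4*, a keratin of non-keratinized stratified epithelium, had 105, 152 and 223 TPM in controls and 898, 170 and 528 TPM in Ptch1Prrx1 samples. Control replicate 3 lay above Ptch1Prrx1 replicate 2. *Krt19* had 587, 162 and 350 TPM in Ptch1Prrx1 samples against 85.6 to 209 TPM in controls, and *Krt13* was highest in replicate 1, at 3182 TPM. *Spdef*, a goblet cell factor, was at most 0.38 TPM, and *Agr2*, a secretory cell gene, had 7.31 to 14.4 TPM in controls and 9.72, 5.81 and 11.04 TPM in Ptch1Prrx1 samples; neither was highest in replicate 1. The part of conjunctival epithelium in the alarmin counts was not tested.

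**Figure D2:**
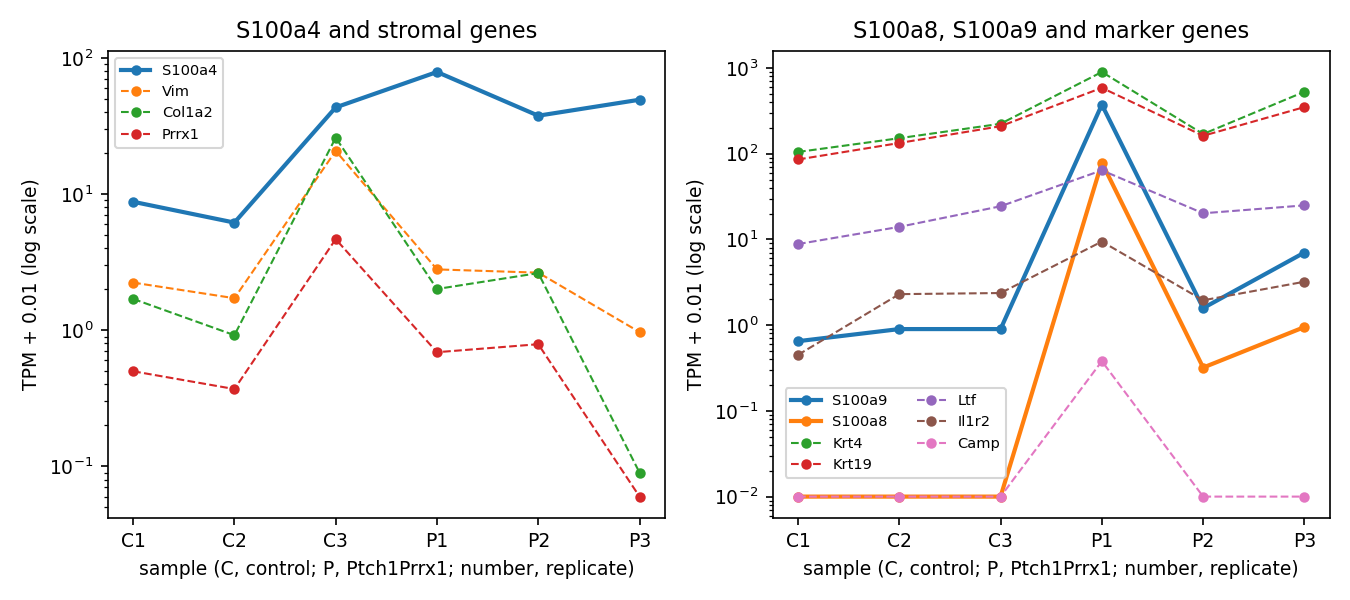
TPM + 0.01 on log axes for each of the 6 samples (C, control; P, Ptch1Prrx1; the number is the replicate), with S100 members as thick solid lines and marker genes as dashed lines. On the left, *Vim*, *Col1a2* and *Prrx1* peak in control replicate 3, the control in which *S100a4* is at 43.4 TPM. On the right, *S100a9*, *S100a8*, *Krt4*, *Krt19*, *Ltf* and *Il1r2* all peak in Ptch1Prrx1 replicate 1, where *Camp* reaches 0.37 TPM. The markers drawn are a part of each list. Of those not drawn, *Pdgfra*, *Dcn*, *Ptgds* and *Thy1* did not peak in control replicate 3, while *Col1a1*, *Col3a1*, *Col5a1*, *Cd34* and *Kera* did. *Padi4*, *Csf3r*, *Cxcr2*, *Ly6g*, *Agr2* and *Spdef* did not peak in Ptch1Prrx1 replicate 1, while *Itgam*, *Krt13* and *Krt7* did.

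Among the constitutive members, the growth-associated *S100a6* was the one that passed the test with all samples. *S100a6* (gene 20200) encodes calcyclin, which binds annexins and the calcyclin-binding protein Cacybp. It had 3968, 3556 and 3474 TPM in control replicates 1 to 3 and 6105, 5103 and 4706 TPM in Ptch1Prrx1 replicates 1 to 3. Every Ptch1Prrx1 sample was above every control, with a gap of more than the range of the controls. *S100a6* rose 1.49-fold (log2 fold change 0.58, standard error 0.14, edgeR quasi-likelihood adjusted p = 0.0383), short of the fold for a call. The direction held without any one sample, at a log2 fold change of 0.43 to 0.69, but the adjusted p passed 0.05 without control replicate 1 (0.0611), control replicate 2 (0.143), control replicate 3 (0.105) or Ptch1Prrx1 replicate 2 (0.0706) by edgeR. It was also above 0.05 without both control replicate 3 and Ptch1Prrx1 replicate 1 (edgeR adjusted p = 0.0893) and in limma on log2(TPM + 1) with no filter (adjusted p = 0.0838). Without Ptch1Prrx1 replicate 1, where 9 of the 10 members peaked, it stayed under 0.05 (edgeR adjusted p = 0.0490).

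*S100a11* (gene 20195), whose protein binds annexin A1 and helps form the cornified envelope of keratinocytes, was the most abundant member in both groups. Its levels were 4696, 4685 and 4578 TPM in controls and 6906, 5602 and 5386 TPM in Ptch1Prrx1 replicates 1 to 3. The groups did not overlap, and the 3 controls lay closer together than the Ptch1Prrx1 samples. The log2 fold change was 0.40 (standard error 0.13, edgeR adjusted p = 0.0732). It passed the test with DESeq2 (adjusted p = 0.0116) and in edgeR without Ptch1Prrx1 replicate 3 (adjusted p = 0.0494). *S100a10* (gene 20194), the p11 partner that holds annexin A2 in a tetramer, had 1685, 1613 and 1723 TPM in controls and 2389, 1848 and 1729 TPM in Ptch1Prrx1 samples, a log2 fold change of 0.30 (standard error 0.15, edgeR adjusted p = 0.203). Replicate 1 stood out and replicate 3 lay at the level of the controls, so that without replicate 1 the log2 fold change was 0.11.

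*S100a14* and *S100a16* are epithelial members that lie side by side on chromosome 3. *S100a14* (gene 66166) had 654, 631 and 641 TPM in controls and 939, 719 and 688 TPM in Ptch1Prrx1 replicates 1 to 3. These groups did not overlap either, and the log2 fold change was 0.33 (standard error 0.14, edgeR adjusted p = 0.153), or 0.14 without Ptch1Prrx1 replicate 1. *S100a16* (gene 67860) had 928, 942 and 885 TPM in controls and 1030, 991 and 880 TPM in Ptch1Prrx1 samples. Its groups overlapped, with a log2 fold change of 0.12 and an interval of 1.96 standard errors either side from -0.08 to 0.32 (edgeR adjusted p = 0.462).

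*S100a4* (gene 20198), also called fibroblast-specific protein, is a motility factor that binds non-muscle myosin and is known from fibroblasts, leukocytes and migrating epithelium. It had the largest fitted fold change of the 8 tested members and the most uneven controls. Control replicates 1 to 3 had 8.78, 6.17 and 43.4 TPM and Ptch1Prrx1 replicates 1 to 3 had 79.0, 37.7 and 49.4 TPM. Control replicate 3 lay above Ptch1Prrx1 replicate 2, and the other controls lay far below every Ptch1Prrx1 sample. The log2 fold change was 1.58 (standard error 0.64, edgeR adjusted p = 0.130) with all samples and 2.83 (edgeR adjusted p = 0.0281) without control replicate 3. Leaving out Ptch1Prrx1 replicate 1 as well, a choice made after seeing the data, gave 2.43 (edgeR adjusted p = 0.00410), and leaving out Ptch1Prrx1 replicate 1 alone gave 1.19 (edgeR adjusted p = 0.282). Without any other single sample the log2 fold change was 1.17 to 1.79 (edgeR adjusted p = 0.149 to 0.302). Control replicate 3 is the control with the highest *S100a4*. Leaving it out was bound to raise the fold, so the calls without it are no support for a difference.

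Control replicate 3 also had the highest summed level of stromal markers. Of 13 keratocyte markers, 12 were in the table, 5 passed the filter and 0 were called by edgeR, DESeq2 or limma-voom (1 of the 5, *Pdgfra*, had an unadjusted p under 0.05). Their sum was 12.4, 10.5 and 60.8 TPM in control replicates 1 to 3 and 12.2, 13.5 and 8.31 TPM in Ptch1Prrx1 samples. *Col1a2*, a fibrillar collagen chain, had 1.69, 0.91 and 26.0 TPM in controls and 2.00, 2.62 and 0.08 TPM in Ptch1Prrx1 samples, and *Vim*, the mesenchymal intermediate filament, had 2.23, 1.71 and 20.8 TPM in controls and 2.79, 2.64 and 0.96 TPM in Ptch1Prrx1 samples. *Kera*, the keratocyte proteoglycan keratocan, was at most 0.07 TPM in any sample. *Col1a1* and *Col3a1* were at most 0.66 and 0.17 TPM, both in control replicate 3. *Pdgfra* went the other way among controls, at 6.91, 6.50 and 5.58 TPM. In Ptch1Prrx1 replicates 1 to 3 it had 3.26, 5.68 and 4.22 TPM. In the Ptch1Prrx1 samples *Col1a2* and *Vim* stayed at 2.79 TPM or below. The markers *Dcn* and *Ptgds*, both removed by the filter, were higher in every Ptch1Prrx1 sample than in any control, at 0.54 to 1.35 against 0.06 to 0.36 TPM and at 0.26 to 0.88 against 0.13 to 0.14 TPM. The part of stromal cells in the *S100a4* levels was not tested.

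**Figure D3:**
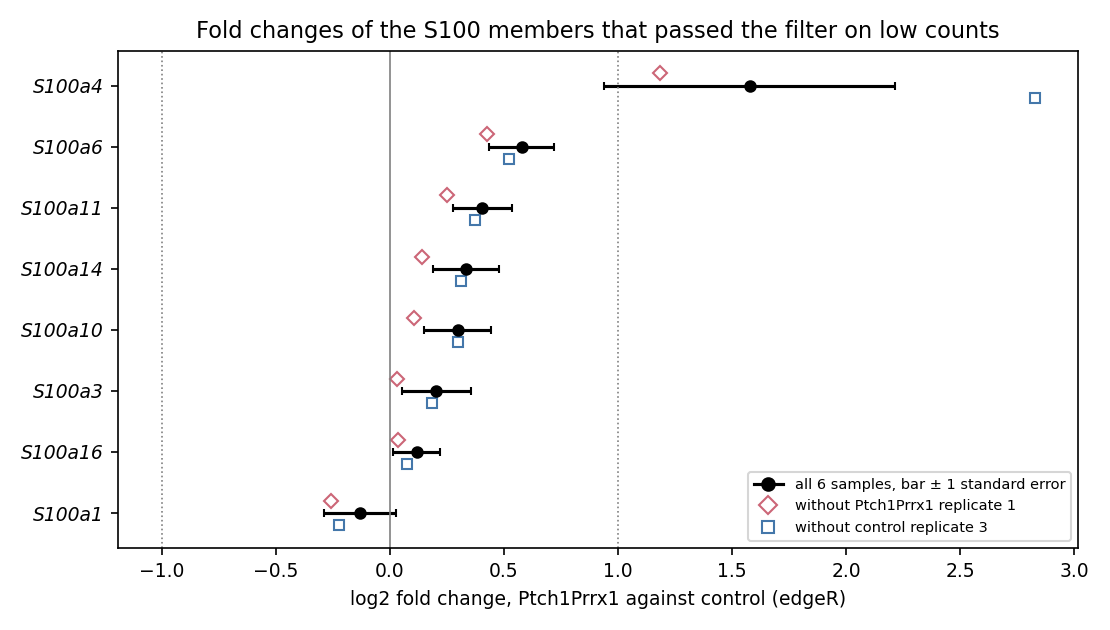
Log2 fold change (Ptch1Prrx1 against control, edgeR) of the 8 members that passed the filter, as black points with bars of 1 standard error either side, red diamonds without Ptch1Prrx1 replicate 1, blue squares without control replicate 3, and dotted lines at a fold change of 2 in either direction. *S100a4* moves from 1.58 to 2.83 without control replicate 3, its highest control, while the other members stay below the fold of 2 under both.

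*S100a1* and *S100a3* are low-level members whose groups overlapped. *S100a1* (gene 20193), best known from heart muscle, where its protein acts on calcium cycling, was the one tested member with a fitted change below 0. It had 48.6, 41.6 and 38.3 TPM in controls and 42.5, 36.4 and 34.9 TPM in Ptch1Prrx1 samples, overlapping ranges with a log2 fold change of -0.13 and an interval of 1.96 standard errors from -0.44 to 0.18 (edgeR adjusted p = 0.595). *S100a3* (gene 20197), a cysteine-rich member of the hair cuticle, had 30.8, 30.8 and 30.7 TPM in controls and 40.8, 30.5 and 32.2 TPM in Ptch1Prrx1 samples. The ranges overlapped, with a log2 fold change of 0.20 (standard error 0.15, edgeR adjusted p = 0.387) that fell to 0.03 without Ptch1Prrx1 replicate 1.

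One sample ran through all of these values. Ptch1Prrx1 replicate 1 was the highest of the 6 samples for 9 of the 10 members (all but *S100a1*) and for 18.4% of all tested genes. Its TPM divided by the mean of replicates 2 and 3 was 126 for *S100a8* and 86.9 for *S100a9*, 1.81 for *S100a4*, and 1.10 to 1.34 for the other 7 members. Among Ptch1Prrx1 samples, the alarmins thus varied far more than the constitutive members, through replicate 1, a contrast described without a test. Among controls it did not hold: *S100a9* ran from 0.64 to 0.89 TPM and *S100a8* was at 0, while *S100a4* ran from 6.17 to 43.4 TPM.

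The S100 genes outside the members included the one called gene of the family. Of 7 other S100 genes listed, 5 were in the table, 2 passed the filter and 1 was called, against 2.34% of all tested genes called higher. *S100a7a* (gene 381493), the mouse relative of human psoriasin and an antimicrobial gene of stressed epithelium, had 26.5, 12.4 and 11.4 TPM in controls and 132, 98.3 and 66.2 TPM in Ptch1Prrx1 replicates 1 to 3. The groups did not overlap, and all 3 Ptch1Prrx1 samples were well above the highest control. *S100a7a* rose by a log2 fold change of 2.49 (standard error 0.39, edgeR adjusted p = 0.0125), although its expected counts were not whole and may include reads shared with close copies, and the call was lost without control replicate 2 (edgeR adjusted p = 0.0725). *S100a13*, which overlaps *S100a1* in the genome, had a log2 fold change of 0.26 (edgeR adjusted p = 0.587). *S100a5*, *S100b* and *S100z* had 3 or fewer expected counts in every sample, and *S100a7l2* and *S100g* were not analysed here. *S100a2*, added after its values were seen, had a log2 fold change of 0.73 (edgeR adjusted p = 0.348).

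Along chromosome 3, RefSeq places *S100a1*, *S100a13*, *S100a14*, *S100a16*, *S100a3*, *S100a2*, *S100a4*, *S100a5*, *S100a6*, *S100a7a*, *S100a8* and *S100a9* in this order with 0 protein-coding genes between them. *S100a11* and *S100a10* lie beside each other farther along, past *S100a7l2*, with 1 protein-coding gene before it and 54 after it. Neighbourhood was described without a test. In normalized counts, *S100a6*, *S100a7a*, *S100a8* and *S100a9*, which follow each other, were above every control in all 3 Ptch1Prrx1 samples. In replicates 2 and 3 the alarmins rested on 1 and 3 counts (*S100a8*) and 7 and 31 counts (*S100a9*). *S100a14* and *S100a11* did not overlap between groups either, and the other S100 genes of chromosome 3 in the table overlapped. Of all tested genes, 19.7% were higher in Ptch1Prrx1 without overlap.

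**Figure D4:**
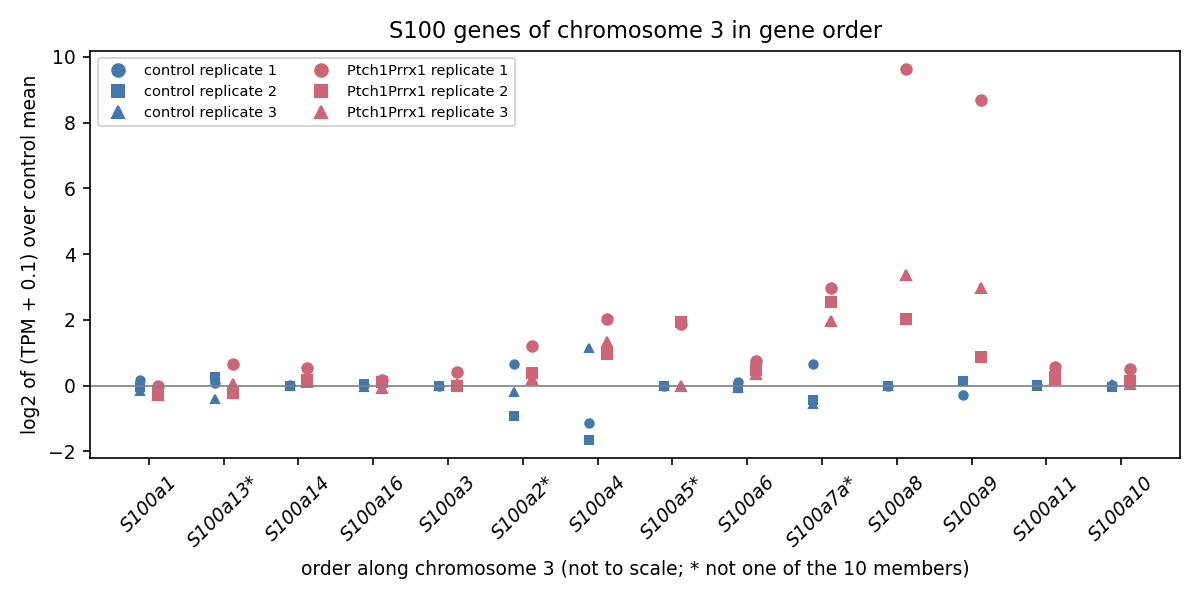
Log2 of TPM + 0.1 over the control mean for each control sample (blue) and Ptch1Prrx1 sample (red), with the S100 genes of chromosome 3 in gene order, not to scale, and an asterisk on genes that are not among the 10 members. *S100a7a* lies above all its controls in 3 of 3 Ptch1Prrx1 samples, while *S100a8* and *S100a9* reach their highest points in replicate 1.

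Fused-type S100 genes join an S100 domain to the repeats of a cornified envelope protein and lie in the same chromosomal region. Of 7 listed, 5 were in the table, 4 passed the filter and 2 were called, both higher, at very low levels. Over all tested genes, 2.34% were called higher. *Flg* (filaggrin) had 1 to 2 expected counts in controls and 12 to 13 in Ptch1Prrx1 samples, or 0.01 to 0.02 against 0.09 to 0.10 TPM (log2 fold change 2.85, edgeR adjusted p = 0.0118). *Rptn* (repetin) had 0 to 2 expected counts in controls and 12 to 16 in Ptch1Prrx1 samples (log2 fold change 3.70, edgeR adjusted p = 0.0141). Both genes passed the filter through their Ptch1Prrx1 samples, since their controls had 2 counts or fewer, so the calls are no support for a difference. Both were lost without control replicate 2. *Tchh* and *Crnn* had log2 fold changes of -0.14 and 0.17 (edgeR adjusted p = 0.792 and 0.732), and *Hrnr* had 2 expected counts in all.

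Receptors for secreted S100 proteins ranged from abundant to nearly absent. All 10 listed were in the table, 7 were tested and 0 passed the adjusted p threshold in edgeR (median log2 fold change 0.12). Of the 7, *Cd14* and *Emb* had an unadjusted p under 0.05, and DESeq2 and limma-voom called 0. *Cd36*, *Mcam* and *Erbb4* were under 1 TPM in all samples. *Tlr4*, the toll-like receptor that binds calprotectin, was at 9.37 to 11.1 TPM in controls and 10.1 to 11.3 TPM in Ptch1Prrx1 samples (log2 fold change 0.12, edgeR adjusted p = 0.393). *Ager*, which encodes the receptor RAGE, was at 0.68 to 1.64 TPM in controls and 0.99 to 1.5 TPM in Ptch1Prrx1 samples (log2 fold change 0.15, edgeR adjusted p = 0.816). *Bsg*, encoding basigin, was the most abundant of them at 421 to 446 TPM.

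The intracellular partners ranged from *Myh10*, at 8.01 to 9.29 TPM, to *Anxa2*, at 3486 to 4383 TPM, and were mostly level between groups. All 13 listed were tested and 0 were called by edgeR, DESeq2 or limma-voom (4 had an unadjusted p under 0.05), with a median log2 fold change of 0.02. At any fold, *Myh9*, the non-muscle myosin heavy chain bound by the S100a4 protein, rose by 0.28 on the log2 scale (edgeR adjusted p = 0.0409). *Anxa6* and *Ahnak2* fell by 0.40 and 0.55 (edgeR adjusted p = 0.0480 and 0.0296). Over all tested genes, 7.61% were higher and 6.41% lower at any fold. *Anxa1*, the partner of the S100a11 protein, had 1222, 1336 and 1537 TPM in controls and 2253, 1710 and 1645 TPM in Ptch1Prrx1 replicates 1 to 3, without overlap. Its log2 fold change was 0.50 (standard error 0.16, edgeR adjusted p = 0.0691). *Anxa2* and *Ahnak*, which form a complex with the S100a10 protein, had log2 fold changes of 0.16 and 0.10 (edgeR adjusted p = 0.322 and 0.341). *Cacybp* had one of 0.02 (edgeR adjusted p = 0.895).

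Transcription factors linked to alarmin genes are listed here as *Hif1a* and the AP-1, C/EBP, STAT, NF-kB and myeloid factors known to bind such promoters. Of 12 listed and tested, 3 were called, all higher, against 2.34% of all tested genes called higher. At any fold 8 were higher, against 7.61% of all tested genes. The median log2 fold change was 0.48, against -0.01 over all tested genes. The list was chosen with earlier results of these data known, so these shares describe it and are no support for a rise of such factors. *Jun*, a subunit of AP-1, had 56.9, 62.2 and 61.1 TPM in controls and 421, 309 and 227 TPM in Ptch1Prrx1 replicates 1 to 3 (log2 fold change 2.47, edgeR adjusted p = 0.00436). *Fos*, its partner, had 115, 146 and 128 TPM in controls and 196, 410 and 308 TPM in Ptch1Prrx1 samples (log2 fold change 1.26, edgeR adjusted p = 0.0180). Among Ptch1Prrx1 samples, *Jun* was thus highest and *Fos* lowest in replicate 1. The part of these factors in the alarmin counts was not tested. *Spi1*, the myeloid factor PU.1, had 1.64, 3.13 and 3.32 TPM in controls and 5.15, 6.13 and 5.36 TPM in Ptch1Prrx1 samples (log2 fold change 1.08, edgeR adjusted p = 0.0415). The *Spi1* call was lost without any one of the 6 samples, and the *Fos* call without any one control or Ptch1Prrx1 replicate 2.

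The genes whose log2 CPM over the 6 samples was most like that of the alarmins, among 10323 well-counted genes, were *Mrpl32* (Pearson r = 0.999), *Ist1*, *Clp1*, *Dync1li1* and *Notch1* for *S100a8* and *Cdc42bpb* (r = 0.996), *Cnot2*, *Mrpl32*, *Ist1* and *Vmp1* for *S100a9*. The likeness is one of shape and not of size, since these genes had log2 fold changes of 0.09 to 0.57 and none was called by edgeR. All of them were highest in Ptch1Prrx1 replicate 1, and the 6 points share their libraries.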

How the data were processed

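Corneal epithelium was profiled in 3 Ptch1Prrx1 and 3 control samples, named from the labels. Whether each sample is 1 mouse or a pool is not given in the sources used here, and if samples share animals the p-values measure only their spread. The authors aligned reads with Bowtie2 2.2.5 and deposited RSEM 1.2.12 expected counts and TPM (FPKM was not used), and the submitters' notes list build mm9. The labels give an age of 10 weeks and the study 2 months at induction. The labels name an Illumina kit, and the study describes rRNA depletion and nanoball sequencing. The sample columns not mapped numbered 0. Of values above 0, 39.4% were not whole (tolerance 0.001), and counts were rounded.

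Of 17784 genes, 12999 passed filterByExpr and were tested with edgeR 4.0.16 (R 4.3.3; TMM factors 0.960 to 1.03) with Benjamini-Hochberg adjustment. On simulated data for this comparison (12907 genes, 200 of them shifted by 1.5 on the log2 scale), 99% of changed genes were recovered and 0.502% of calls were false. The simulation set the same dispersion (spread between samples) for every gene, shifted only genes above a minimum CPM and had no deviating sample. These rates therefore check the procedure and are not the power of the real data. Alternatives used DESeq2 1.42.0, limma 3.58.1 (voom, or log2 TPM with a pseudocount of 1 or 0.1), other factors, filters and call rules, a replicate block and leaving out samples. Pairs of samples within a group differed beyond sampling noise (chi-square per degree of freedom 10.1 to 37.8). The members and lists were chosen with earlier results of these data known. Named genes were all members, all other S100 and fused-type S100 genes listed, 6 partners and receptors fixed by name, up to 6 called genes of each other list, up to 3 abundant genes of each marker list (not all printed) and the 5 genes most like each alarmin. Other genes named are examples chosen after their values were seen. Normalized counts are TMM-scaled.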

Additional observations from a re-analysis of the deposited data

How the results depend on the processing

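Over the whole table, the 420 called genes (304 higher, 116 lower) became 234 (165 and 69) with limma on log2(TPM + 1), 168 (122 and 46) without its filter and 1822 (989 and 833) with no minimum fold. Leaving out 1 sample in turn gave 59 to 430 calls (45 to 298 higher, 14 to 132 lower), the fewest without control replicate 2. Calls among the 10 members were 0 in the main fit and ranged from 0 to 1 without 1 sample. *S100a4* was called without control replicate 3, its highest control. *S100a9* was called without Ptch1Prrx1 replicate 2, where it passed the filter through the Ptch1Prrx1 samples. The count was 1 without both control replicate 3 and Ptch1Prrx1 replicate 1, a choice made after seeing the data, and 1 with no minimum fold. The other tools, size factors, filters and limma fits gave 0 calls among the members.

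With the replicate number as a block, 390 genes were called (278 and 112) and *S100a11* reached an adjusted p of 0.0460 in edgeR. The correlations of same-numbered samples' deviations were 0.105, -0.0137 and 0.0189, so the numbers were not taken to pair the samples.

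Signs turned for the following log2 fold changes, and none of these genes was called. Without both samples named above, *S100a16* was -0.0089, *S100a13* -0.25, *Crnn* -0.23, *Cacybp* -0.0064, *Col1a2* 0.056 and *Krt5* -0.0043. Leaving out samples gave ranges of -0.0089 to 0.22 for *S100a16*, -0.25 to 0.44 for *S100a13*, -0.52 to 0.11 for *Tchh*, -0.23 to 0.33 for *Crnn*, -0.024 to 0.057 for *Cacybp*, -0.095 to 0.61 for *Ager*, -3.07 to 0.30 for *Col1a2*, -2.36 to 0.14 for *Vim* and -0.011 to 0.088 for *Krt5*. In limma on log2(TPM + 1), *Cacybp* was -0.022 with and without the filter, and -0.023 with a pseudocount of 0.1, and *S100z* was -0.073 without the filter. The cause was not tested. Of all values of single genes under alternatives, 593 kept direction and side of the threshold, 30 lost the call, 6 gained it and 20 turned sign. Low counts limit *S100a8*, *S100a9*, *Flg* and *Rptn*.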
